A study of Saccharomyces cerevisiae with 12 samples.

Results

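The V-ATPase is a rotary proton pump of the membranes of vacuoles, endosomes and the Golgi. Its soluble V1 sector hydrolyses ATP, and its membrane sector, Vo, carries the protons. In budding yeast, Vo is built from a ring of proteolipids (subunits c, c′ and c″), the large subunit a beside the ring, subunit d on the cytosolic face of the ring and the small subunit e. Subunit a has a pair of isoforms: Vph1, which is found at the vacuole, and Stv1, which is found in the Golgi and endosomes. Protons cross on glutamates of the ring, and concanamycin A, a macrolide inhibitor of the V-ATPase, binds to the ring. The transcripts described here are those of the 7 genes for these subunits, chosen by name: VPH1 and STV1 (a), VMA3 (c), VMA11 (c′), VMA16 (c″), VMA6 (d) and VMA9 (e). They are 7 of the 6216 features in the deposited count table, and all 7 had enough reads to be tested.

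RNA was sequenced from Saccharomyces cerevisiae BY4741, a haploid laboratory strain deleted for LEU2, MET17 and URA3 and carrying an internal deletion in HIS3, growing exponentially in the rich medium YPD. Exposure to concanamycin A, at 500 nM, lasted 0, 1, 3 or 6 h, and each time has 3 libraries, 12 in all, prepared from total RNA depleted of ribosomal RNA. No culture left without the drug for 1, 3 or 6 h is analysed here, so hours in culture and hours in the drug cannot be told apart. Whether the replicate libraries come from separate cultures is not in the labels, and p-values measure the spread between libraries, which may be technical.

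Totals ran between 8508894 and 11008709 counts per library, and all 12 replicate pairs differed beyond sampling noise, with a chi-square per degree of freedom of 3.23 or more. Of the genes deleted in the strain, MET17, LEU2 and URA3 summed to 0, 8 and 20 counts over the 12 libraries, and HIS3 drew 363 to 860 counts in each. Levels are given as CPM, a count scaled to a common library total, after scaling with the trimmed mean of M values (TMM), which sets the middle of the features equal between libraries. The TMM factors were 0.843 to 0.881 at 0 h and 0.995 to 1.11 at the later times. Scaling by total counts instead moved the median log2 fold change of all features against 0 h to 0.21 at 1 h, 0.35 at 3 h and 0.34 at 6 h, from values within 0.05 of 0. In bulk RNA, less of a transcript per cell and fewer cells that hold it cannot be told apart. Changes below are relative to the middle of all features, and the values by total counts are given where they turn a direction.

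The sequence around the proton-carrying glutamate is shown for the 3 proteolipid genes, because it is what the ring subunits share and lies in the part of the pump where the drug acts. Each is 63 bases of coding sequence in genome build R64, written 5′ to 3′ on the gene's own strand. Capitals mark the glutamate codon, found by script as the GAA followed by a valine codon and, 4 and 5 codons after that, by a tyrosine and a glycine codon.
VMA3, codon 137, chrV:101147-101209, plus strand: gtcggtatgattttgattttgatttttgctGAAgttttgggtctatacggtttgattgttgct
VMA11, codon 145, chrXVI:104976-105038, minus strand: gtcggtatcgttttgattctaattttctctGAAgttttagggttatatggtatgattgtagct
VMA16, codon 108, chrVIII:161135-161197, plus strand: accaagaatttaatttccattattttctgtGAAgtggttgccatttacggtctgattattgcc
Aligned over their whole coding sequences, VMA3 and VMA11 shared 70% of bases, VMA3 and VMA16 63.0%, and VMA11 and VMA16 63.2%. The isoforms VPH1 and STV1 shared 68.1% of bases. The longest match of either isoform elsewhere in the genome was to the other, 69.6% identical over 786 bases. For VMA3, VMA11, VMA16, VMA6 and VMA9 no match elsewhere passed the search threshold. No member thus has a near-identical copy that could take its reads.

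After 6 h in concanamycin A, 5 of the 7 Vo transcripts were lower than at 0 h by TMM scaling. The Golgi and endosome isoform STV1 was higher, and VMA9 did not pass the test. Over all 5615 tested features, 28.9% were lower and 33% were higher. VMA16, for subunit c″, fell the most, to 0.542 of its 0 h level. VPH1, VMA3, VMA11 and VMA6 fell to between 0.663 and 0.711 of theirs. STV1 stood at 1.21 times its 0 h level, so the isoforms of subunit a moved in opposite directions.

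VPH1 (YOR270C; chrXV:828052-830574, minus strand) encodes the vacuolar isoform of subunit a, which forms the proton half-channels. It had 969, 943 and 954 CPM at 0 h, with 880.4, 857 and 838 in the 1 h libraries, 734, 716 and 700.4 in those of 3 h, and 689, 615 and 634 in those of 6 h. Each time's libraries lay wholly below those of the time before. The edgeR quasi-likelihood test gave a log2 fold change of -0.15 ± 0.05 (SE) at 1 h against 0 h (adjusted p = 0.0169), -0.42 ± 0.05 at 3 h (adjusted p = 1.07e-05) and -0.56 ± 0.05 at 6 h (adjusted p = 2.96e-07). By total counts, VPH1 was at 0.06 at 1 h, -0.08 at 3 h and -0.27 at 6 h, so that only the 6 h decrease passed the threshold under that scaling too.

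STV1 (YMR054W; chrXIII:383303-385975, plus strand) encodes the isoform of subunit a that serves Golgi and endosomes. Its libraries had 89.9, 89.9 and 88.1 CPM at 0 h, with 92.7, 92.2 and 82.7 in the 1 h libraries, 102, 98.0 and 91.9 in those of 3 h, and 111, 105 and 109 in those of 6 h. The 1 h libraries spanned those of 0 h, the 3 h libraries lay just above them, and the 6 h libraries lay above all others. The log2 fold change against 0 h was -0.00 ± 0.06 at 1 h (adjusted p = 0.983), 0.12 ± 0.06 at 3 h (adjusted p = 0.0966) and 0.28 ± 0.06 at 6 h (adjusted p = 0.00101, edgeR). The 6 h increase was larger by total counts, at 0.58.

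VMA3 (YEL027W; chrV:100769-101251, plus strand) encodes proteolipid c, which makes up most of the ring. It had 718, 729 and 867 CPM at 0 h, with 708, 722 and 803 in the 1 h libraries, 659, 648 and 638 in those of 3 h, and 499, 511 and 522 in those of 6 h. The libraries of 0 and 1 h overlapped, those of 3 h lay below both, and those of 6 h lay lowest. The log2 fold change against 0 h was -0.05 ± 0.07 at 1 h (adjusted p = 0.569), -0.25 ± 0.07 at 3 h (adjusted p = 0.00924) and -0.59 ± 0.07 at 6 h (adjusted p = 7.34e-06, edgeR). By total counts these values were 0.16, 0.09 and -0.29.

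VMA11 (YPL234C; chrXVI:104946-105440, minus strand) encodes c′, a proteolipid of the fungal enzyme. It had 105, 116 and 118 CPM at 0 h, with 102, 106 and 96.9 in the 1 h libraries, 91.3, 86.7 and 83.7 in those of 3 h, and 81.4, 79.1 and 80.0 in those of 6 h. The 0 and 1 h libraries overlapped by a single library on each side, and the later times lay below both. The log2 fold change against 0 h was -0.16 ± 0.06 at 1 h (adjusted p = 0.0409), -0.38 ± 0.06 at 3 h (adjusted p = 1.62e-04) and -0.50 ± 0.06 at 6 h (adjusted p = 8.13e-06, edgeR). The 1 h call was lost under DESeq2 (adjusted p = 0.0605), and without 0 h replicate 2, 1 h replicate 1 or 1 h replicate 3, where the adjusted p was 0.0611, 0.0759 and 0.137 (edgeR). It was also lost with only the 6 libraries compared (adjusted p = 0.104, edgeR). By total counts the values were 0.06, -0.04 and -0.20, of which the 6 h value passed the threshold.

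VMA16 (YHR026W; chrVIII:160844-161485, plus strand) encodes c″, the largest proteolipid of the ring. It had 209.6, 208 and 241 CPM at 0 h, with 179, 178 and 182 in the 1 h libraries, 166, 162 and 155 in those of 3 h, and 125, 116 and 116 in those of 6 h. Its libraries separated at every step, but the step from 1 to 3 h was not called. There the log2 fold change was -0.15 ± 0.06 (adjusted p = 0.0689, edgeR). The log2 fold change against 0 h was -0.29 ± 0.06 at 1 h (adjusted p = 0.00173), -0.44 ± 0.06 at 3 h (adjusted p = 5.96e-05) and -0.88 ± 0.06 at 6 h (adjusted p = 4.56e-08, edgeR). By total counts it was at -0.08, -0.11 and -0.59, of which the 6 h value passed the threshold.

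VMA6 (YLR447C; chrXII:1026856-1027893, minus strand) encodes subunit d, which sits on the ring where the central stalk of V1 docks. It had 473, 490.0 and 553 CPM at 0 h, with 420.4, 412 and 415 in the 1 h libraries, 419, 431 and 403 in those of 3 h, and 376, 351 and 351 in those of 6 h. The level was lower at 1 h, was nearly the same at 3 h, and was lower again at 6 h. The log2 fold change was -0.28 ± 0.06 at 1 h against 0 h (adjusted p = 0.00159), 0.01 ± 0.06 at 3 h against 1 h (adjusted p = 0.946) and -0.22 ± 0.06 at 6 h against 3 h (adjusted p = 0.0105, edgeR). At 6 h against 0 h it was -0.49 ± 0.06 (adjusted p = 8.90e-06, edgeR). By total counts VMA6 stood against 0 h at -0.07 at 1 h and 0.06 at 3 h, neither past the threshold, and at -0.19 at 6 h, which passed it.

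VMA9 (YCL005W-A; chrIII:107023-107417, plus strand), a gene with 3 coding exons, encodes the small membrane subunit e. Its libraries had 94.8, 87.2 and 99.5 CPM at 0 h, with 89.2, 92.5 and 99.3 in the 1 h libraries, 90.9, 87.4 and 97.0 in those of 3 h, and 85.2, 86.9 and 83.6 in those of 6 h. The first 3 times overlapped, and the 6 h libraries lay just under the lowest of each. At 6 h against 0 h the log2 fold change was -0.14 ± 0.06 (adjusted p = 0.0770, edgeR). With the median-of-ratios scaling of DESeq2 it was -0.16 and passed the threshold (adjusted p = 0.0385, edgeR). By total counts it was 0.16 and passed in the other direction (adjusted p = 0.0466, edgeR).

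**Figure D1:**
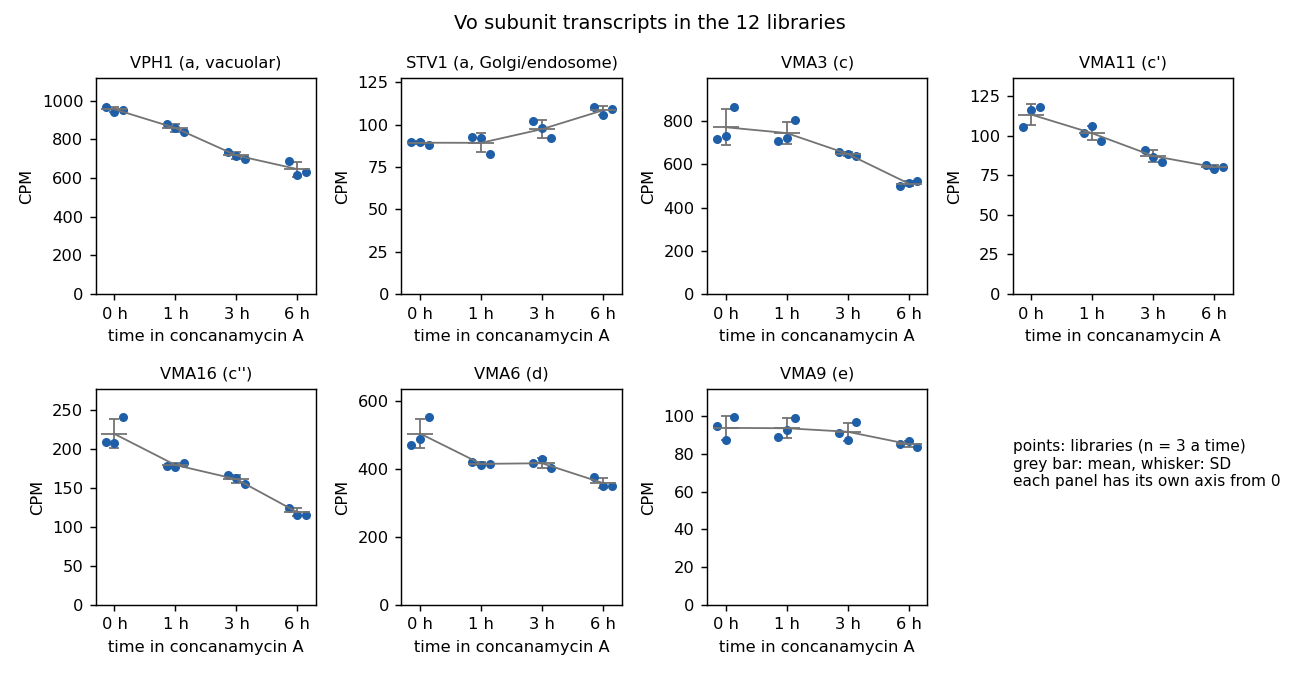
CPM (TMM-scaled) of each Vo transcript against time in 500 nM concanamycin A, 1 panel per gene with its own vertical axis; points are the 3 libraries of a time and bars the mean and SD. The 6 h libraries of VPH1, VMA3, VMA11, VMA16 and VMA6 lie below all 0 h libraries of the same gene, and those of STV1 lie above. Those of VMA9 lie just below, and VMA9 stays between 83.6 and 99.5 CPM throughout. The share of all features that separate in this way was not counted.

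In the test over all 4 times, 6 of the 7 members passed, beside 78.5% of all 5615 tested features. VMA9 was the member that did not (adjusted p = 0.173, edgeR F test over the 4 times). At 1 h against 0 h, 4 members were lower (VPH1, VMA11, VMA16 and VMA6) and 0 were higher, where 23.4% of all features were lower and 24.5% were higher. Without 1 h replicate 3 the 1 h count was 2, since VPH1 (adjusted p = 0.0563) and VMA11 lost their calls (edgeR). At 3 h against 0 h, VMA3 joined those 4, giving 5 lower and 0 higher, against 24.5% lower and 26.3% higher over all features. At 6 h against 0 h, 5 were lower and 1 was higher, against 28.9% lower and 33% higher. The median log2 fold change of the 7 members was -0.15 at 1 h, -0.28 at 3 h and -0.50 at 6 h, while that of all features was -0.00, 0.02 and 0.05. The 3 comparisons share the 0 h libraries, so their counts are not independent of each other.

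The scaling set the direction of the earlier counts. By total counts, 3 members were higher and 0 lower at 1 h (STV1, VMA3 and VMA9). At 3 h 2 were higher and 0 lower (STV1 and VMA9), and at 6 h 2 were higher and 5 lower. The shares of all features called in each direction were counted under TMM alone, here and for the lists below. Counts by total counts have no such share beside them and are not read as particular to these genes. Under that scaling the median log2 fold change of all features was 0.21, 0.35 and 0.34 at 1, 3 and 6 h. The decrease of VPH1, VMA3, VMA11, VMA16 and VMA6 at 6 h and the increase of STV1 at 6 h held under both scalings.

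**Figure D2:**
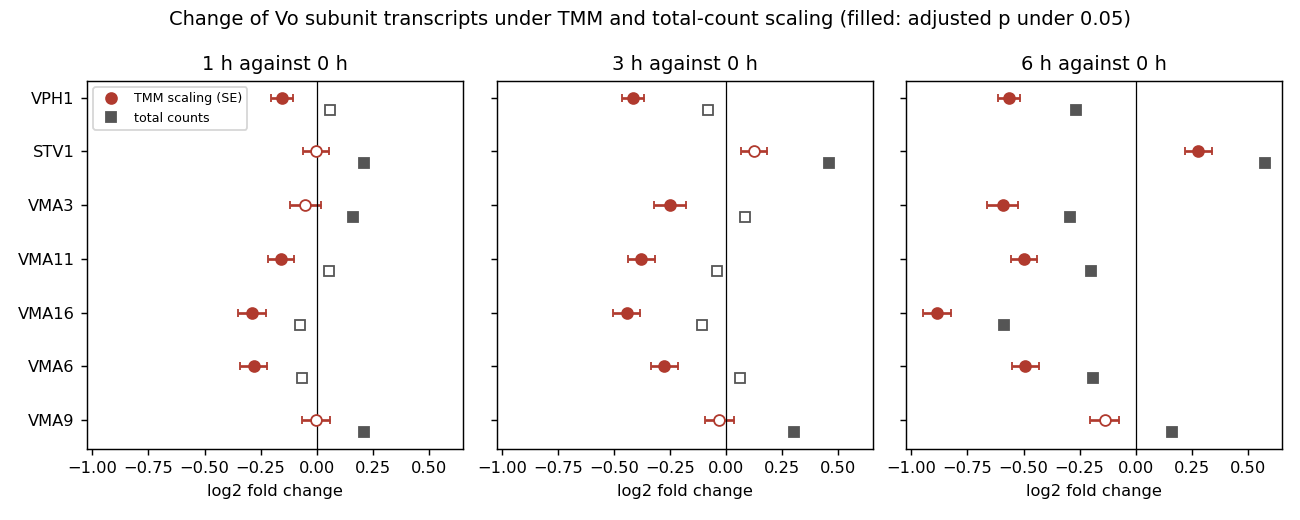
Log2 fold change of each Vo transcript at 1, 3 and 6 h, each against 0 h, by TMM scaling (circles, with SE bars) and by total counts (squares); filled markers passed an adjusted p of 0.05. At 6 h the members run between -0.88 (VMA16) and 0.28 (STV1) by TMM, and by total counts every value lies further to the right.

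At 3 h against 1 h, 3 members were lower (VPH1, VMA3 and VMA11) and 0 were higher, beside 17.6% lower and 16.9% higher over all features. By total counts 1 was lower (VPH1) and 1 higher (STV1). Without 1 h replicate 2 or without 3 h replicate 3, VPH1 alone was called. The VMA3 call was lost in 5 of the 6 fits that left out a library of 1 or 3 h, with an adjusted p of up to 0.161 (edgeR). At 6 h against 3 h, 4 members were lower and 1 was higher, beside 21.7% lower and 21% higher. The lower ones were VPH1 (-0.15 ± 0.05, adjusted p = 0.0234), VMA3 (-0.34 ± 0.07, adjusted p = 0.00184), VMA16 (-0.44 ± 0.06, adjusted p = 1.44e-04) and VMA6, and the higher one was STV1 (0.16 ± 0.06, adjusted p = 0.0441, edgeR). The count was 3 without 6 h replicate 2 or without 6 h replicate 3, where VPH1 and STV1 lost their calls, and 2 without 3 h replicate 2, where VMA6 lost its call too. The STV1 call was lost in 5 of the 6 fits that left out a library of 3 or 6 h, with an adjusted p between 0.0520 and 0.166 (edgeR). It was also lost under median-of-ratios scaling (adjusted p = 0.0687), by total counts (adjusted p = 0.127, edgeR) and under DESeq2 (adjusted p = 0.111). At 6 h against 1 h, 5 were lower and 1 was higher, beside 26.7% lower and 27.2% higher. By total counts 5 were lower and 0 higher at 6 h against 3 h, and 4 were lower and 1 higher at 6 h against 1 h.

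For the remaining proteolipid, VMA11, the log2 fold change was -0.22 ± 0.06 at 3 h against 1 h (adjusted p = 0.0115) and -0.12 ± 0.06 at 6 h against 3 h (adjusted p = 0.119, edgeR).

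Replicate 3 of 0 h stood apart for some members. It exceeded the mean of the other 0 h libraries by 0.26 on the log2 scale for VMA3, 0.21 for VMA16, 0.20 for VMA6 and 0.13 for VMA9, where the median of all features was 0.01. Without it, the log2 fold change at 6 h against 0 h was -0.54 for VMA3, -0.85 for VMA16 and -0.46 for VMA6. The counts of members called stayed at 4, 5 and 6 at 1, 3 and 6 h.

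Per kilobase of coding length, which allows levels of different genes to be compared, VMA3 was the most abundant Vo transcript at every time. Its mean was 1597 ± 172 CPM per kb at 0 h, 1541 ± 106 at 1 h, 1342 ± 21.3 at 3 h and 1058 ± 23.6 at 6 h (SD, n = 3 each). At 0 h it was followed by VMA6 at 487 ± 40.9, VMA9 at 423 ± 27.9, VPH1 at 379 ± 5.23, VMA16 at 342 ± 28.9, VMA11 at 229 ± 13.98 and STV1 at 33.4 ± 0.392 CPM per kb. Only the neighbours VPH1 and VMA16 overlapped in that order. From 1 h on, VMA9 stood second, overlapping VMA6 at 1 and 3 h. By 6 h the order was VMA3, VMA9 (384 ± 7.44), VMA6 (346 ± 13.7), VPH1 (256 ± 15.2), VMA16 (185 ± 7.99), VMA11 (162 ± 2.33) and STV1 (40.6 ± 0.989 CPM per kb), with no overlap between neighbours. VMA9 has introns and the libraries are of total RNA, so its level per coding length may include reads from unspliced RNA, which was not tested.

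Ranked by CPM per kb among 5512 features with a coding length, VMA3 exceeded 97.2% of them at 0 h, 98.1% at 1 h, 98.2% at 3 h and 97.6% at 6 h. VMA16 exceeded 91.6%, 90.0%, 89.5% and 86.3% at those times, and VPH1 92.3%, 91.7%, 90.9% and 89.8%. STV1 lay in the lower part of the distribution, above 41.7% of features at 0 h and 46.0% at 6 h. Of all counts, the 7 members took 0.237 ± 0.00819% at 0 h, 0.248 ± 0.00207% at 1 h, 0.242 ± 0.00109% at 3 h and 0.203 ± 0.00274% at 6 h (SD, n = 3 each). This share depends on no TMM factor, and its libraries at 6 h averaged below those of the other times. Within the summed CPM per kb of Vo, VMA9 made up 12.1% at 0 h, 13.1% at 1 h, 14.2% at 3 h and 15.8% at 6 h. VMA16 made up 9.79%, 8.68%, 8.65% and 7.61%, and VMA3 45.7%, 47.8%, 46.2% and 43.5%, at the same times.

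**Figure D3:**
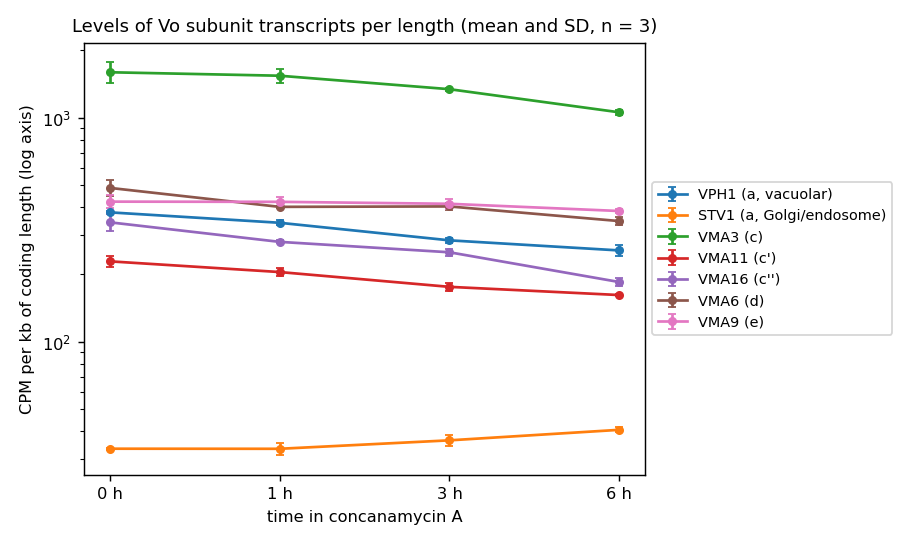
Mean CPM per kb of coding length of the 7 Vo transcripts on a log axis against time in concanamycin A, with SD bars over 3 libraries. VMA3 lies above all others at 1058 to 1597, STV1 lies lowest at 33.4 to 40.6, and VMA9 passes VMA6 after 0 h.

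The balance between the isoforms of subunit a was read within each library, where scaling cancels. Per coding length, VPH1 stood to STV1 as 11.4, 11.1 and 11.5 in the 0 h libraries, as 10.1, 9.85 and 10.7 in those of 1 h, as 7.62, 7.74 and 8.07 in those of 3 h, and as 6.60, 6.18 and 6.15 in those of 6 h. The libraries of each time lay below all those of the time before. The log2 ratio differed by -0.85 at 6 h against 0 h, and its variance between the 4 times gave p = 6.49e-05 in an exact permutation test, the smallest that the 369600 assignments of libraries to times can give. Leaving out each library of 0 or 6 h in turn gave differences between -0.88 and -0.83. Leaving out a library of 1 or 3 h cannot alter that difference. Over all these fits p lay between 6.49e-05 and 0.00013 in the same exact test. The lower value is again the smallest possible, here with 92400 assignments.

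Among the proteolipids, VMA16 stood to VMA11 as 1.14 ± 0.0349 at 6 h and 1.49 ± 0.1001 at 0 h, per coding length (SD, n = 3 each). VMA3 stood to VMA16 as 5.73 ± 0.357 at 6 h and 4.66 ± 0.114 at 0 h. In both ratios the 6 h libraries lay apart from those of 0 h. VMA3 stood to VMA11 as 6.97 ± 0.537 at 0 h, 7.54 ± 0.830 at 1 h, 7.62 ± 0.211 at 3 h and 6.54 ± 0.215 at 6 h, and the 6 h and 0 h libraries overlapped. These 3 ratios are descriptions and were not tested.

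**Figure D4:**
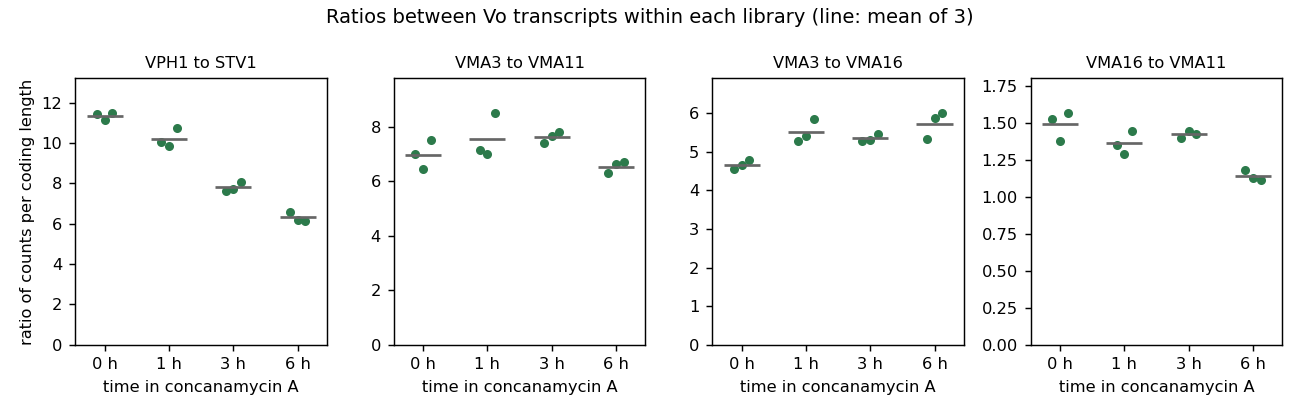
Ratios of Vo transcripts within each library, per coding length, against time in concanamycin A; points are the 3 libraries of a time. VPH1 over STV1 lies between 11.1 and 11.5 at 0 h and between 6.15 and 6.60 at 6 h.

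The other parts of the pump and its surroundings were read from 7 lists of genes. Of the 8 V1 subunit genes, 0 were higher and 7 lower (33% and 28.9% of all features) at 6 h against 0 h, with a median log2 fold change of -0.42. VMA5, for subunit C, fell by 0.59 on the log2 scale (log2 fold change -0.59 ± 0.05, adjusted p = 5.95e-07, edgeR), and VMA7, for subunit F, by the same amount. VMA10, for subunit G, was the V1 gene not called, at -0.05 ± 0.06 (adjusted p = 0.468, edgeR). As a gene chosen after its values were seen, it stood at 278 ± 13.5 CPM at 6 h and 288 ± 14.9 CPM at 0 h. Between those times it was higher than at 0 h, by 0.37 ± 0.06 at 1 h (adjusted p = 1.17e-04) and 0.24 ± 0.06 at 3 h (adjusted p = 0.00273, edgeR). By total counts 2 V1 genes were higher and 4 lower, with a median of -0.12. The higher ones were VMA10 (0.25, adjusted p = 0.00211) and VMA13 (0.14, adjusted p = 0.0400, edgeR). VMA13, also named after its values were seen, was lower by TMM (-0.16, adjusted p = 0.00705, edgeR).

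Of the 5 factors that assemble Vo in the endoplasmic reticulum, 0 were higher and 4 lower at 6 h against 0 h, beside 33% and 28.9% of all features, with a median of -0.53. VOA1 had 175 ± 14.1 CPM at 6 h and 289 ± 38.1 CPM at 0 h, and VMA22 had 16.7 ± 1.30 and 26.7 ± 1.59 CPM at those times. Their log2 fold changes were -0.73 ± 0.09 (adjusted p = 9.77e-06) and -0.67 ± 0.09 (adjusted p = 4.03e-05, edgeR). By total counts 0 were higher and 2 lower.

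Of the 5 genes that join V1 to Vo or part them (the RAVE complex, RTC5 and OXR1), 1 was higher and 1 was lower at 6 h against 0 h, with a median of -0.02. These shares do not exceed the 33% higher and 28.9% lower of all features. RTC5, whose product promotes disassembly, was at -0.63 ± 0.07 (adjusted p = 6.89e-06), and OXR1, another disassembly factor, at 0.35 ± 0.11 (adjusted p = 0.0150, edgeR). The OXR1 call was lost without 0 h replicate 3, where it stood at 0.18 (adjusted p = 0.0864, edgeR). By total counts 4 of these genes were higher and 1 lower.

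Of the 5 genes for PI(3,5)P2, a lipid of the vacuole membrane that Vph1 binds, 3 were higher and 0 lower at 6 h against 0 h, beside 33% and 28.9% of all features, with a median of 0.31. FAB1, the kinase that makes the lipid, had 189 ± 12.3 CPM at 6 h and 120 ± 8.24 CPM at 0 h, a log2 fold change of 0.66 ± 0.07 (adjusted p = 1.62e-06, edgeR). VAC7, its activator, was at 0.83 ± 0.06 (adjusted p = 1.19e-07, edgeR). Without 0 h replicate 3, 3 were higher and 1 lower. The lower one was ATG18, named after its values were seen, at -0.20 (adjusted p = 0.0239, edgeR). By total counts 5 were higher and 0 lower.

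Of the 6 genes of the plasma membrane proton pump and its regulators, 1 was higher and 4 lower at 6 h against 0 h, beside 33% and 28.9% of all features, with a median of -0.32. PMA1, the pump itself, had 6576 ± 186 CPM at 6 h and 9485 ± 614 CPM at 0 h (log2 fold change -0.53 ± 0.05, adjusted p = 4.01e-07, edgeR). HRK1, a kinase that activates it, was at 0.17 ± 0.05 (adjusted p = 0.0109), a call lost without 0 h replicate 3 (adjusted p = 0.0537, edgeR). By total counts 2 were higher and 1 lower.

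Of the vacuolar transporters that run on the proton gradient, 8 of the 9 listed were tested, and 2 were higher and 3 lower at 6 h against 0 h, with a median of -0.09. These shares lie near the 33% higher and 28.9% lower of all features. The zinc transporters COT1 and ZRC1 moved in opposite directions, COT1 at 1.30 ± 0.06 (adjusted p = 1.30e-09) and ZRC1 at -1.16 ± 0.05 (adjusted p = 5.08e-10, edgeR). YPQ1, a transporter of basic amino acids, was at -0.88 ± 0.11 (adjusted p = 1.08e-05, edgeR). Without 0 h replicate 3, 2 were higher and 4 lower. By total counts 5 were higher and 2 lower, with COT1, ZRC1 and YPQ1 called in the same directions.

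Of the 8 genes of vacuole fusion (SNAREs and their partners), 6 were higher and 1 lower at 6 h against 0 h, beside 33% and 28.9% of all features, with a median of 0.26. NYV1, a SNARE of the vacuole, was at 0.65 ± 0.08 (adjusted p = 1.16e-05), and YPT7, the Rab GTPase of vacuole fusion, at -0.63 ± 0.07 (adjusted p = 6.77e-06, edgeR). Without 0 h replicate 3, 4 were higher and 1 lower. By total counts 7 were higher and 1 lower.

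The 7 members lie on 7 chromosomes, and none overlaps its annotated neighbour on either side. The nearest gap is 86 bp, between VMA9 and SNR43. Genes lying wholly inside a member were not searched for. Of their 14 neighbours, 12 were tested, and at 6 h against 0 h 2 were higher, 7 lower and 3 not called, beside 33% higher and 28.9% lower over all features. The higher ones were YLR446W, on the other side of VMA6 from RPL6B, at 1.30 ± 0.17 (adjusted p = 1.43e-05), and NSL1, upstream of VMA11, at 0.56 ± 0.08 (adjusted p = 3.43e-05, edgeR). RPL6B, a ribosomal protein gene divergent from VMA6, was at -1.40 ± 0.05 (adjusted p = 1.24e-10), and FSF1, upstream of VPH1, at -0.95 ± 0.08 (adjusted p = 2.74e-07, edgeR). THR1 and RPN1, on either side of VMA16, were at -0.47 ± 0.07 (adjusted p = 1.04e-04) and -0.38 ± 0.07 (adjusted p = 3.25e-04, edgeR). Neither neighbour of STV1 was called, with STB2 at 0.24 ± 0.25 (adjusted p = 0.438) and BUB2 at 0.28 ± 0.13 (adjusted p = 0.0844, edgeR).

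The features whose log2 CPM over the 12 libraries was most like that of a member were found by Pearson's r, given as a description, since all points share the scaling and the trend of the 4 times. VMA16 was matched most closely, by SUB2, SPE3 and NSG1 (r = 0.993, 0.992 and 0.990). VPH1 was nearest to TCB1, TCP1 and KTR6 (0.987, 0.985 and 0.982), and VMA3 to TMA19, ADO1 and CCT5 (0.982, 0.982 and 0.980). VMA6 was nearest to MES1, YNL010W and EMP70 (0.975, 0.974 and 0.971), and VMA11 to SIP3, APL6 and KRS1 (0.971, 0.970 and 0.969). STV1 was nearest to SMP1, TGL2 and GRX6 (0.962, 0.960 and 0.952). The closest features to VMA9 reached less: GIM4, SSS1 and RNH203 (0.864, 0.858 and 0.855).

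The windows before the genes of the oppositely moving isoforms and of VMA16, the member with the largest decrease, are shown in build R64, each with the 250 bases before the start codon and the first 50 bases from it on, written 5′ to 3′ on the gene's strand. Capitals mark the start codon and, in VMA16, a match to the motif searched for Rim101.
VPH1, chrXV:830525-830824, minus strand: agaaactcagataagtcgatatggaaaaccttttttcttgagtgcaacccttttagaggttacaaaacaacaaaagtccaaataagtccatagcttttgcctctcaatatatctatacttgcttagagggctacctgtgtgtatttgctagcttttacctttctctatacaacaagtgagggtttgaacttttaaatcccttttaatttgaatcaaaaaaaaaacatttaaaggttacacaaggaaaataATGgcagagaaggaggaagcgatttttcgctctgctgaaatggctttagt
STV1, chrXIII:383053-383352, plus strand: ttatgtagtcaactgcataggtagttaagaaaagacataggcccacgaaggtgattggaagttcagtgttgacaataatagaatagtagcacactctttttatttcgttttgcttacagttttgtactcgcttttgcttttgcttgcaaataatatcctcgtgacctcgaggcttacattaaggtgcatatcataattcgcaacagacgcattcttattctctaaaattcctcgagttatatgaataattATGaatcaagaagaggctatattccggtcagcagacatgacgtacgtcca
VMA16, chrVIII:160594-160893, plus strand: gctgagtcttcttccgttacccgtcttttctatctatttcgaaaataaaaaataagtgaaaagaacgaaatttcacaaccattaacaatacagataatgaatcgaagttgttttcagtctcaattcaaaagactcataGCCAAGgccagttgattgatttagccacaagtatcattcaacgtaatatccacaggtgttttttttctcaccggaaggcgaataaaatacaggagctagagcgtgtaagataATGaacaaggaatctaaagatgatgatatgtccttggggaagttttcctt
The windows of all 7 members were searched on both strands for 9 motifs, and each share is of all 6001 windows of this length. The motif for Pho4 and Cbf1 was CACGTG, held by 2.92% of windows, and that for Gcn4 was TGACTC, held by 7.98%. For Yap1 the letters TTACTAA were in 7.45% of windows, for Aft1 the letters TGCACCC were in 1.3%, for Rpn4 the letters GGTGGCAAA were in 1.2%, and for Crz1 the letters GAGGCTG were in 1.72%. No member held any of these 6. The Rim101 motif GCCAAG was found before VMA16 and VMA9, and in 10.3% of all windows. The TATA box, TATAAA, matched 3 times before VMA3, overlapping matches on opposite strands included, and 1 time before VMA9, and 45.2% of all windows held it. The VMA9 match starts at -245 relative to the start codon, which is inside STP22, the gene 169 bp upstream of VMA9. The Msn2 and Msn4 motif AGGGG matched 1 time, in VMA3 after the start codon, and 21.6% of all windows held one. VPH1, STV1, VMA11 and VMA6 held no match to any of the 9.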

How the data were processed

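The deposited file is 1 table of whole-number read counts per gene, which the authors made from stranded, rRNA-depleted total RNA libraries. STAR 2.5.2b, featureCounts 1.5.1 and build R64 are the tools and genome listed in the submitters' processing notes, and no source used here gives the annotation release or the counting settings. The 3 blank lines were dropped. Of 6216 features, 5615 passed filterByExpr and were fitted over all 12 libraries with edgeR 4.0.16 in R 4.3.3 (TMM scaling, robust quasi-likelihood); p-values were adjusted by Benjamini-Hochberg over all tested features, with a threshold of 0.05. An SE is the log2 fold change over the root of its F statistic. The fit was also run on simulated counts. The pass criterion there covered only changes larger than that of any member, so it does not speak to smaller ones. Gene positions, coding lengths and sequences were read from the RefSeq R64 genome and annotation with Python 3.11.15. The members, gene lists and tests were chosen with earlier results of these data known. Genes named from a list were up to 2 per direction with the largest change past the threshold in the comparison described, plus each member's 3 closest features and its neighbours; others are marked. VMA12 was found in the table as VPH2. Alternatives were other scalings, filters and tools (DESeq2 1.42.0), leaving out libraries, and fitting pairs alone.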

Additional observations from a re-analysis of the deposited data

How the results depend on the processing

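Over the alternatives run, 5 members lower and STV1 higher at 6 h against 0 h kept their calls. A call was gained in 1 of 21 member comparisons without 0 h replicate 2, and in 1 of 42 with only the 6 libraries compared. By total counts the number of members called at 3 h against 0 h was 2, and the log2 fold change turned positive for VPH1 (0.058), STV1 (0.21), VMA3 (0.16), VMA11 (0.056) and VMA9 (0.21) at 1 h against 0 h, for VMA3 (0.086), VMA6 (0.061) and VMA9 (0.30) at 3 h against 0 h, for VMA9 at 6 h against 0 h (0.16) and for VMA9 at 3 h against 1 h (0.094). With TMM over nuclear open reading frames, STV1 and VMA9 were at 0.0013 and 0.00070 at 1 h against 0 h and VMA6 at -0.0037 at 3 h against 1 h; with only the 6 libraries compared, they were at 0.0036, 0.0027 and -0.0016. Leaving out 1 library at a time gave 2 to 4 members called at 1 h against 0 h, 1 to 3 at 3 h against 1 h and 2 to 4 at 6 h against 3 h. It gave log2 fold changes of -0.051 to 0.050 for STV1, -0.12 to 0.00098 for VMA3 and -0.085 to 0.031 for VMA9 at 1 h against 0 h, -0.11 to 0.00048 for VMA9 at 3 h against 0 h, and -0.017 to 0.033 for VMA6 and -0.070 to 0.016 for VMA9 at 3 h against 1 h. None of these sign changes was of a value called under TMM except VPH1, VMA11, VMA3 and VMA6 by total counts; the cause was not tested. The header letters A, B and C were tried as a replicate block, chosen after seeing the data. Deviations of log2 CPM from the mean of each time were correlated between libraries of different times. Same-letter pairs stood at -0.08 to 0.46 (median 0.32), with 12 of 18 over 0.1. Other-letter pairs stood at -0.48 to 0.38 (median -0.11), with 6 of 36 over 0.1. Same-letter libraries thus deviated more alike on the median. This held for A and C but not for B, whose pairs lay between -0.077 and 0.072. What the letters stand for is not given, so the main fit leaves them out. The block gave 6 members called at 6 h against 0 h and changed none of the 42 member calls. The gene lists were recounted under other scalings and without 0 h replicate 3, also chosen after seeing the data. With 3 libraries per time, SEs of 0.05 to 0.07 on the log2 scale limit what can be called.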
